A study of Rattus norvegicus with 44 samples.

Results

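The genes described here are 8 components of Notch signalling, the receptor Notch1, the ligands Dll1, Dll3 and Jag1, and the transcriptional targets Hes1, Hes5, Hey1 and Nrarp. They were chosen by name, as the probe sets to which the platform annotation assigns exactly 1 of these genes. The rule found 12 probe sets of 24183, and all 8 genes were measured, of 12749 genes that have such a probe set. The samples were 44 arrays of 5 rat neural precursor lines, each of them 1 clone, which were grown with the growth factor FGF2 on poly-lysine and laminin. Day 0 cells were kept in FGF2, and day 3 and day 7 cells had been without it for that time, in medium with B27 supplement and a little fetal bovine serum. The precursor Ge6 is described by its label as GABAergic and neuronal, L2.2 as interneuronal, Ge2 as nonneuronal, and both Ctx8 and L2.3 as multipotential. Where a gene has several probe sets the brightest stands for it, which makes 1371491_at the probe set of Notch1, 1368938_at of Dll1, 1370263_at of Dll3, 1368725_at of Jag1, 1387036_at of Hes1, 1368942_at of Hes5, 1386080_at of Hey1 and 1382138_at of Nrarp. Each of the 15 groups of clone and day held 3 sister cultures, except L2.2 at day 0 with 2, and since they are cultures of 1 clone each, p-values measure the spread between cultures and not between clones of a kind.

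Notch is a receptor that is cut when a ligand of the Delta or Jagged type on a neighbouring cell binds it. The freed intracellular part enters the nucleus, joins the DNA-binding protein RBPJ and switches on target genes, above all the Hes and Hey repressors. In the developing mouse brain these repressors keep precursors from becoming neurons by holding down proneural factors, which in turn drive Delta ligands, so that neighbouring cells take different paths. The same pathway favours astrocytes later in development, and Hes and Hey genes also respond to other signals, so their level is not a direct reading of Notch cleavage.

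Array medians lay between 24.2 and 28.9 intensity units, and values under 16.3, the 40th percentile of all values, are called near background here. The labels were set against marker genes. All 7 measured neural precursor markers were above background in every group except Pax6, which was near background in Ge6 at all 3 days. Of 10 neuron markers, 5 were near background in Ge2 at day 0, 5 at day 3 and 6 at day 7, Tubb3 and Dcx among them at each day, while all 10 were above background in Ge6 and in L2.2 at days 3 and 7. At day 0, 5 of 10 were near background in Ge6 and 5 of 10 in L2.2 as well. The neuron markers summed to 9969.8 to 10253 intensity units in Ge6 at day 7, against 1349.8 to 1538 at day 0, and to 1376 to 1467 in Ge2 at day 7, against 986 to 1140.0 at day 0. Of 10 microglial markers 7 were near background in all 15 groups, of 10 endothelial markers 5, and of 10 pericyte or mesenchymal markers 4.

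The first question was how many of the 8 genes moved after FGF2 withdrawal in each clone. Levels were compared as log2 intensity with limma over all probe sets, and a gene is said to have risen or fallen only where the p-value, adjusted by Benjamini-Hochberg over all probe sets, was under 0.05. Because so many probe sets changed, each count is given beside the share of all probe sets that passed in the same direction. By day 3, against day 0, 2 of 8 genes rose and 4 fell in Ge6, where 43.6% of all probe sets passed, 21.6% as rises and 21.9% as falls. The genes that rose there were Hey1 and Jag1. At day 3, 4 of 8 genes rose in L2.2, where 40.8% of all probe sets passed, 19.3% as rises and 21.5% as falls (14.6% and 34.9% after a shift of all arrays to 1 median), and the risers were Dll1, Hey1, Notch1 and Nrarp. Likewise at day 3, 4 of 8 genes rose and 1 fell in Ge2, where 54.5% of all probe sets passed, 28.2% as rises and 26.2% as falls (22.6% and 41.3% after a shift of all arrays to 1 median), with Nrarp as the gene that fell. For the multipotential clones at day 3, 6 of 8 genes rose and 1 fell in Ctx8, where 47.5% of all probe sets passed, 24.0% as rises and 23.5% as falls (19.4% and 40.1% after a shift of all arrays to 1 median), Nrarp alone having fallen. Likewise, 5 of 8 genes rose and 2 fell in L2.3, where 39.8% of all probe sets passed, 18.7% as rises and 21.1% as falls (15.3% and 29.5% after a shift of all arrays to 1 median). Hey1 was the only 1 of the 8 genes that rose at day 3 in all 5 clones, and no gene fell in all 5.

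By day 7, against day 0, 1 of 8 genes rose and 5 fell in Ge6, where 53.7% of all probe sets passed, 25.7% as rises and 28.0% as falls (20.7% and 42.7% after a shift of all arrays to 1 median), Hey1 being the gene that rose. In the same comparison, 5 of 8 genes rose and 1 fell in L2.2, where 44.1% of all probe sets passed, 20.0% as rises and 24.1% as falls (16.2% and 35.9% after a shift of all arrays to 1 median). For the nonneuronal clone, 4 of 8 genes rose and 1 fell in Ge2, where 54.4% of all probe sets passed, 26.9% as rises and 27.5% as falls (22.5% and 42.7% after a shift of all arrays to 1 median). Of the multipotential clones, 2 of 8 genes rose and 5 fell in Ctx8, where 48.8% of all probe sets passed, 23.5% as rises and 25.3% as falls (18.3% and 46.3% after a shift of all arrays to 1 median). For the second of them, 5 of 8 genes rose and 3 fell in L2.3, where 41.9% of all probe sets passed, 19.2% as rises and 22.7% as falls (15.5% and 35.2% after a shift of all arrays to 1 median). The median change of the 8 genes at day 7 was -0.73 in Ge6, 0.55 in L2.2, 0.27 in Ge2, -0.40 in Ctx8 and 0.58 in L2.3 on the log2 scale, beside medians of -0.0458 to -0.0275 over all probe sets. At day 3 it was -0.21, 0.91, 0.30, 0.39 and 0.64 in the same order of clones, beside -0.0333 to -0.00759. Between day 3 and day 7, 1 of 8 genes, Notch1, fell in Ge6, where 38.2% of all probe sets passed, 17.6% as rises and 20.6% as falls (13.4% and 30.9% after the shift). The late phase had 1 riser and 3 fallers in L2.2 (7.47% and 7.62% of all probe sets, 15.1% in all), and 1 riser and 1 faller in Ge2 (7.10% and 7.22% of all probe sets, 14.3% in all). It had 1 riser and 6 fallers in Ctx8 (8.75% and 9.44% of all probe sets, 18.2% in all), and 1 riser and 4 fallers in L2.3 (6.98% and 5.72% of all probe sets, 12.7% in all). The riser was Hey1 in each of these 4 clones, and the members that fell in each clone are given gene by gene. The shift to 1 median moved the log2 changes against day 0 by -0.164 to -0.0369 at days 3 and 7 and those against day 3 by -0.111 to 0.015, over the 5 clones, and under it no member's change that had passed turned its direction. Of those that had not passed, Jag1 at day 3 in Ge2 and Hes5 at both days in Ge2 and at day 7 in Ctx8 turned negative. Levels of the clones at 1 day, and the sizes of their changes, are compared pair by pair in the same fit. At day 0, 10.6% to 42.0% of all probe sets differed between 2 clones, at day 3, 28.2% to 52.8%, and at day 7, 31.3% to 53.4%, with 31.8% between Ge6 and L2.2 at day 0, and the change since day 0 differed between 2 clones for 25.7% to 45.9% of them. In bulk RNA of a culture, fewer cells of a type and less RNA per cell cannot be told apart.

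**Figure D1:**
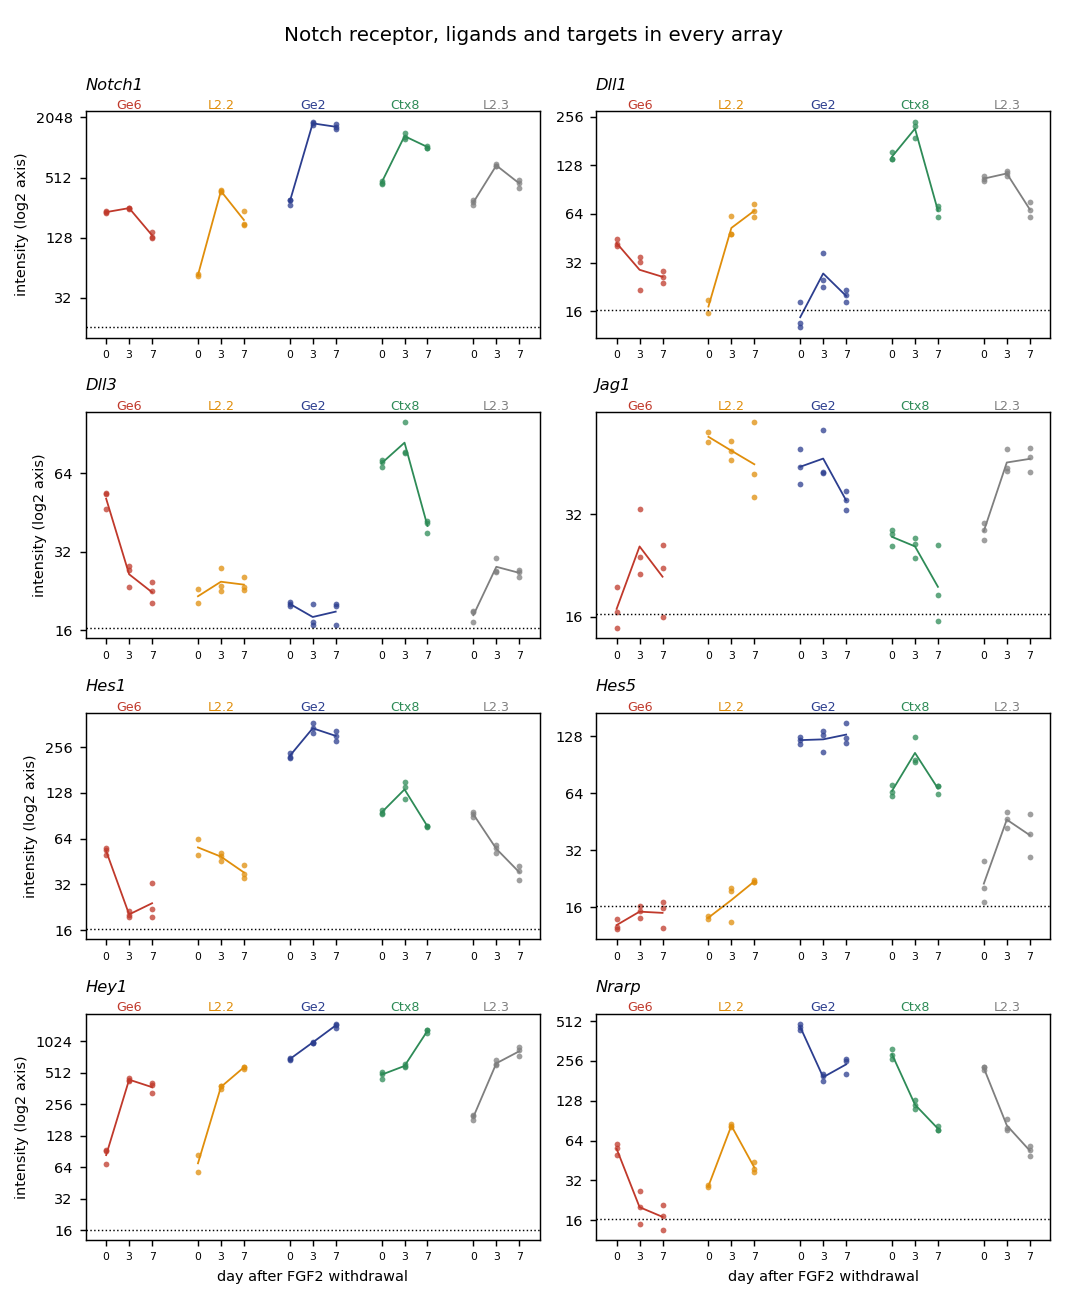
Intensity of the 8 genes in every array, on a log2 axis, by clone and by day after FGF2 withdrawal. Points are arrays (3 per group, 2 for L2.2 at day 0), lines join geometric means and the dotted line marks 16.3 units, under which values are near background. Hey1 climbs after day 0 in each clone, Notch1 in every clone but Ge6, and Nrarp drops in every clone but L2.2.

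Notch1, the receptor, rose after FGF2 withdrawal in 4 of the 5 clones at day 3 and at day 7, and fell in Ge6 at day 7. The largest day 3 changes were in L2.2 and Ge2, of 2.79 and 2.60 on the log2 scale. In Ge6 Notch1 read 226, 237 and 230.3 at day 0, 254, 255 and 250.5 at day 3 and 131, 147 and 129 at day 7 (intensity units). L2.2 had Notch1 at 53.1 and 55.5 at day 0, 371, 372 and 383 at day 3 and 237, 177 and 170.5 at day 7. For Ge2 the Notch1 intensities were 272, 304 and 308 at day 0, 1854, 1719 and 1778 at day 3 and 1739, 1570.4 and 1642 at day 7. Ge6 thus had its lowest arrays at day 7, whereas in L2.2 and Ge2 every array of days 3 and 7 lay above all of day 0. In Ctx8 Notch1 read 444, 454 and 470.3 at day 0, 1442, 1250.3 and 1301 at day 3 and 1017, 1066 and 1019.7 at day 7. L2.3 had Notch1 at 290.2, 273 and 305 at day 0, 672, 694 and 664 at day 3 and 406, 455 and 484 at day 7. In both multipotential clones day 3 was highest, and days 3 and 7 did not overlap day 0. The day 3 change was 2.79 ± 0.092 (SE; adjusted p = 9.7e-24) in L2.2, 2.60 ± 0.082 (SE; adjusted p = 3e-25) in Ge2, 1.54 ± 0.082 (SE; adjusted p = 3.21e-18) in Ctx8 and 1.23 ± 0.082 (SE; adjusted p = 4.47e-15) in L2.3, while Ge6 gave 0.13 ± 0.082 (SE; adjusted p = 0.21), which did not pass. At day 7 the change was -0.77 ± 0.082 (SE; adjusted p = 2.44e-10) in Ge6, and 1.83 ± 0.092, 2.49 ± 0.082, 1.18 ± 0.082 and 0.63 ± 0.082 in L2.2, Ge2, Ctx8 and L2.3, with adjusted p between 9.95e-25 and 4.99e-08. Between day 3 and day 7 Notch1 fell in Ge6, L2.2, Ctx8 and L2.3, by 0.90, 0.96, 0.36 and 0.60 on the log2 scale, and Ge2 gave -0.11 ± 0.082 (SE; adjusted p = 0.433).

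The difference between clones in the Notch1 change was itself tested. The day 7 change was lower in Ge6 than in L2.2, Ge2, Ctx8 and L2.3, by 2.60, 3.26, 1.95 and 1.40 on the log2 scale, with adjusted p of at most 1.32e-12. At day 0 Notch1 averaged 456 ± 13.5 in Ctx8, 294 ± 19.7 in Ge2, 289.6 ± 15.8 in L2.3, 231 ± 5.41 in Ge6 (SD, n = 3 each) and 54.3 ± 1.69 in L2.2 (SD, n = 2). Ge2 and L2.3, neighbours in that order, differed by 0.023 on the log2 scale (Ge2 minus L2.3; adjusted p = 0.866), and the other neighbours differed beyond the threshold. At day 7 the order was Ge2, Ctx8, L2.3, L2.2 and Ge6, with means of 1650.2 ± 84.4, 1034 ± 27.5, 448 ± 39.7, 195 ± 36.8 and 136 ± 10.01 (SD, n = 3 each), and each neighbour differed from the next. A second Notch1 probe set, 1390426_at, made the same call as the brightest, 1371491_at, in 15 of 15 comparisons of days. Its day 7 changes were -0.49, 1.54, 2.15, 1.03 and 0.52 in Ge6, L2.2, Ge2, Ctx8 and L2.3. The sum of the pericyte or mesenchymal markers rose with Notch1 in Ge2. The 10 genes summed to 1463 to 1961 units at day 7, against 327 to 368 at day 0. Of the 10, 5 were near background at day 7 and 6 at day 0, Lum and Dcn at both. In the other clones that raised Notch1 the sums at day 7 were 319 to 392.3 in L2.2, against 155 to 176 at day 0, 318 to 366 in Ctx8, against 231 to 255, and 218 to 274 in L2.3, against 203 to 236. The part of such cells in the result was not tested.

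Dll1, a Delta ligand that proneural factors induce in newborn neurons of the mouse, was highest in the multipotential clones at day 0 and rose in L2.2 until its day 7 arrays overlapped those of the multipotential clones. It rose in L2.2 and Ge2 at both days and in Ctx8 at day 3, and fell in Ge6 at both days and in Ctx8 and L2.3 at day 7. In L2.2 Dll1 read 18.6 and 15.7 at day 0, 48.1, 62.1 and 48.2 at day 3 and 73.6, 61.2 and 66.7 at day 7. Ctx8 had Dll1 at 139.9, 141 and 154 at day 0, 188, 224 and 238 at day 3 and 72.1, 60.9 and 68.5 at day 7. For L2.3 the Dll1 intensities were 106, 102 and 109.9 at day 0, 115, 118 and 109 at day 3 and 68.1, 76.0 and 61.6 at day 7. L2.2 climbed away from background, Ctx8 was highest at day 3 and lowest at day 7, and L2.3 overlapped between days 0 and 3 before its lower day 7 arrays. In Ge6 Dll1 read 41.7, 40.5 and 44.5 at day 0, 32.1, 34.5 and 21.7 at day 3 and 28.5, 26.0 and 24.1 at day 7. Ge2 had Dll1 at 13.6, 12.7 and 18.3 at day 0, 36.5, 22.5 and 25.0 at day 3 and 20.2, 21.5 and 18.1 at day 7, with 2 of 3 day 0 arrays under the background level. Day 0 lay above all later arrays in Ge6 and below nearly all of them in Ge2, where 1 day 7 array fell within the day 0 range. The changes at days 3 and 7 were 1.62 ± 0.17 and 1.97 ± 0.17 in L2.2 (SE; adjusted p = 2.95e-10 and 1.58e-12), and 0.58 ± 0.15 and -1.11 ± 0.15 in Ctx8 (adjusted p = 0.00126 and 4.63e-08). They were 0.11 ± 0.15 and -0.63 ± 0.15 in L2.3 (adjusted p = 0.639 and 0.000586), -0.55 ± 0.15 and -0.69 ± 0.15 in Ge6 (adjusted p = 0.00231 and 0.000117), and 0.90 ± 0.15 and 0.44 ± 0.15 in Ge2 (adjusted p = 2.17e-06 and 0.0118). The day 7 change was higher in L2.2 than in Ge6, Ge2, Ctx8 and L2.3, by 2.66, 1.53, 3.08 and 2.60 on the log2 scale, with adjusted p of at most 4.53e-07.

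The sum of the 10 neuron markers rose with Dll1 in L2.2, to 6577 to 7922 units at day 7, against 458 to 473 at day 0. All 10 were above background at day 7 and 5 near it at day 0, Dcx among them. Their sum was also higher at day 7 in the 3 clones in which Dll1 fell, at 9969.8 to 10253 units in Ge6, against 1349.8 to 1538 at day 0. It was 4581 to 4899.9 in Ctx8, against 1720.0 to 1803, and 5565 to 5845 in L2.3, against 1553 to 1699. The part of neurons in the Dll1 results was not tested. Between day 3 and day 7 Dll1 fell in Ctx8, L2.3 and Ge2, by 1.69, 0.74 and 0.46 on the log2 scale. Several of the smaller Dll1 calls rested on 1 array. The day 3 fall in Ge6 did not pass without day 3 replicate 3 (-0.34, adjusted p = 0.0651). The day 7 rise in Ge2 did not pass without day 0 replicate 1, day 0 replicate 2 or day 7 replicate 2 (0.38, 0.33 and 0.38), nor with all arrays shifted to 1 median (0.30), and its later fall did not pass without day 3 replicate 1, day 7 replicate 1 or day 7 replicate 3 (-0.25, -0.47 and -0.39). The late change of L2.2, 0.35 ± 0.15 (SE; adjusted p = 0.115), passed without day 3 replicate 2 (0.48). At day 7 L2.3, Ctx8 and L2.2 averaged 68.6 ± 7.23, 67.2 ± 5.75 and 67.2 ± 6.25 units (SD, n = 3 each), with overlapping arrays and adjusted p of 0.911 and 0.998 between neighbours. Ge6 and Ge2 followed at 26.2 ± 2.202 and 19.9 ± 1.70 units. At day 0, by contrast, Ctx8 averaged 145 ± 7.98 and L2.3 106 ± 4.10 units, and their difference of 0.45 (Ctx8 minus L2.3; adjusted p = 0.0436) did not pass when any 1 of the 6 arrays was left out (0.41 to 0.48).

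Dll3, a divergent Delta-type ligand that in mouse cells acts mostly inside the cell and dampens Notch signalling, stood highest in Ctx8 at all 3 days. It fell in Ge6 at both days and in Ctx8 at day 7, and rose in L2.3 at both days. In Ctx8 Dll3 read 70.6, 71.7 and 67.3 at day 0, 100.1, 76.9 and 76.3 at day 3 and 41.8, 37.7 and 41.1 at day 7. Ge6 had Dll3 at 46.6, 53.7 and 53.2 at day 0, 28.2, 23.4 and 27.2 at day 3 and 22.5, 20.3 and 24.4 at day 7. For L2.3 the Dll3 intensities were 18.8, 17.1 and 18.9 at day 0, 30.3, 26.8 and 27.0 at day 3 and 27.3, 25.7 and 26.7 at day 7. In Ge6 every array of days 3 and 7 was below day 0, in L2.3 every such array was above it, and in Ctx8 the day 7 arrays were the low ones. L2.2 and Ge2 stayed between 16.7 and 27.7 units at all days, and their changes did not pass. The changes at days 3 and 7 were -0.96 ± 0.098 and -1.19 ± 0.098 in Ge6 (SE; adjusted p = 1.41e-10 and 2.92e-13), and 0.62 ± 0.098 and 0.54 ± 0.098 in L2.3 (adjusted p = 2.1e-06 and 1.73e-05). In Ctx8 the day 7 change was -0.80 ± 0.098 (SE; adjusted p = 6.99e-09), and Dll3 fell by 1.06 between day 3 and day 7. The day 3 change of Ctx8, 0.26 ± 0.098 (SE; adjusted p = 0.0251), did not pass without day 0 replicate 3 or day 3 replicate 1 (0.24 and 0.13), nor after quantile normalization or the shift to 1 median (0.16 and 0.13). The day 3 change of Ge2, -0.17 ± 0.098, passed without day 3 replicate 1 and after both of those (-0.25, -0.27 and -0.32), and its day 7 change, -0.099 ± 0.098, after the shift (-0.24). The late change of Ge6, -0.23 ± 0.098 (SE; adjusted p = 0.0627), passed without day 3 replicate 2 or day 7 replicate 3 (-0.31 and -0.29). At day 7 Ctx8 averaged 40.2 ± 2.1998 units, followed by L2.3, L2.2, Ge6 and Ge2 at 26.5 ± 0.818, 23.9 ± 1.51, 22.4 ± 2.05 and 18.9 ± 1.89 (SD, n = 3 each). L2.2 minus L2.3 (-0.15, adjusted p = 0.278) and Ge6 minus L2.2 (-0.097, adjusted p = 0.477) did not pass. Ge6 minus Ge2, 0.25 (adjusted p = 0.032), passed but changed its call under 9 alternatives.

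Jag1, the Jagged-type ligand, lay low on the intensity scale in all groups and passed the test in 4 of 15 comparisons of days, against 12 for Dll1 and 7 for Dll3. Its 15 group means lay between 17.0 units, in Ge6 at day 0, and 53.9 units, in L2.2 at day 0. L2.3 was the clone in which Jag1 rose at both days, with 26.9, 28.7 and 30.1 at day 0, 49.7, 42.8 and 43.8 at day 3 and 47.2, 50.1 and 42.4 at day 7. In Ge6 Jag1 read 19.6, 16.6 and 14.8 at day 0, 21.4, 24.0 and 33.1 at day 3 and 25.9, 22.3 and 16.01 at day 7, and in Ctx8 28.7, 25.8 and 27.9 at day 0, 23.8, 26.2 and 27.3 at day 3 and 18.6, 15.6 and 25.9 at day 7. The L2.3 arrays of days 3 and 7 all lay above day 0, while 1 day 7 array lay within the day 0 range in Ge6, the other two above it, and 1 in Ctx8, the other two below it. The L2.3 changes were 0.67 ± 0.17 at day 3 and 0.70 ± 0.17 at day 7 (SE; adjusted p = 0.00137 and 0.000726). The day 3 rise in Ge6, 0.61 ± 0.17 (SE; adjusted p = 0.00295), did not pass without day 3 replicate 3 (0.43), and its day 7 change, 0.31 ± 0.17, passed without day 7 replicate 3 (0.51). The day 7 fall in Ctx8, -0.49 ± 0.17 (SE; adjusted p = 0.0155), did not pass without day 0 replicate 1, day 7 replicate 1 or day 7 replicate 2 (-0.45, -0.45 and -0.32), and the late change there, -0.39 ± 0.17, passed without day 7 replicate 3 (-0.59). L2.2 changed by -0.27 ± 0.19 and Ge2 by -0.33 ± 0.17 at day 7, neither of which passed. The L2.2 value passed without day 7 replicate 3 (-0.47), and that of Ge2 after the shift to 1 median (-0.47) and after quantile normalization (-0.46). At day 7 the highest were L2.3, L2.2 and Ge2 with 46.6 ± 3.91, 45.8 ± 12.2 and 35.2 ± 2.35 units, ahead of Ge6 and Ctx8 with 21.4 ± 5.01 and 20.0 ± 5.30 (SD, n = 3 each), and no neighbours within either group differed past the threshold, though L2.2 minus Ge2 passed without L2.2 replicate 1 (0.51).

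**Figure D2:**
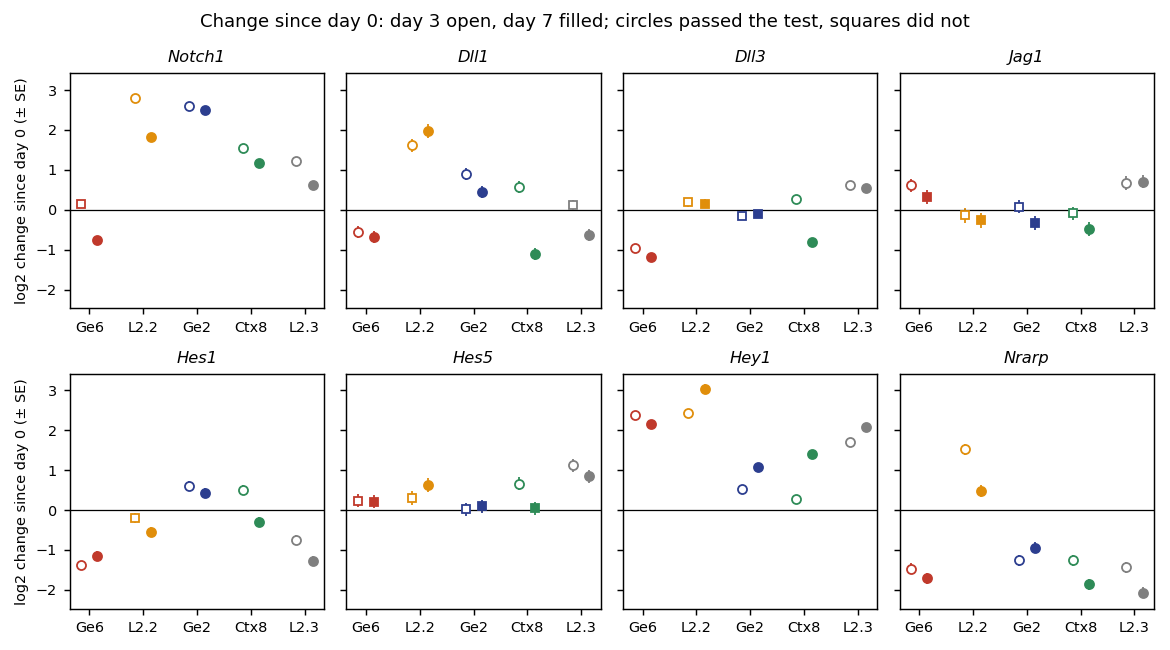
Change of each gene since day 0 on the log2 scale, with its standard error from the fit, in the 5 clones. Open symbols are day 3 and filled symbols day 7, circles passed the test and squares did not. Hey1 lies above 0 in each clone, Notch1 is below 0 at day 7 in Ge6 alone (-0.77), and Nrarp is above 0 in L2.2 alone (1.52 at day 3).

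Hes1 and Hes5 are repressors of the Hes family, and both are direct targets of the RBPJ complex in mouse. Their promoters are shown because the letters TGGGAA, the core that RBPJ binds, occur in each as a pair, as they do in the promoter of the ligand gene Dll1. The windows are those of RefSeq on the rat build GRCr8 and run from 250 bases before to 50 after the gene's start, read 5′ to 3′ on the gene's strand. Capitals mark TGGGAA or, where the site is on the other strand, TTCCCA.
Hes1, chr11:84212996-84213295, strand minus: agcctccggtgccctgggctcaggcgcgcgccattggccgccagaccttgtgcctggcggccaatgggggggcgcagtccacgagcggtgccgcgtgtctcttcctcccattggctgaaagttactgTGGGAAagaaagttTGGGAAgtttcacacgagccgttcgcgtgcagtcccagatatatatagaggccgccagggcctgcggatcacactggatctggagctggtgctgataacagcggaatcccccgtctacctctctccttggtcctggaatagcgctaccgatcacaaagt
Hes5, chr5:170804327-170804626, strand plus: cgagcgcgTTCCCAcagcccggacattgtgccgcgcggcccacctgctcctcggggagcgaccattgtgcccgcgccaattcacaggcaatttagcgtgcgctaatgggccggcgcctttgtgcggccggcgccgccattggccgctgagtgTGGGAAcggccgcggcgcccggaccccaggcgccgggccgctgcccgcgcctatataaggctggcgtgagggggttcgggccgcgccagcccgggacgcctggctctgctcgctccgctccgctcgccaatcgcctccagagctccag
Dll1, chr1:64993225-64993524, strand minus: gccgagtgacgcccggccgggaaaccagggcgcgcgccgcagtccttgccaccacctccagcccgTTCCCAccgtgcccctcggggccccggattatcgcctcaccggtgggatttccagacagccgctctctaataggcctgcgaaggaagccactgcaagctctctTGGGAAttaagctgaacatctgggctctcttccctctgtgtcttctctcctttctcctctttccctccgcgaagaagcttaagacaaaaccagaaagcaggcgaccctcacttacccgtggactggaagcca

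In positions counted from the start of the gene, the first letters of the matches lie at -123 and -109 in Hes1, at -242 and -98 in Hes5 and at -185 and -82 in Dll1. Of the 7 member promoters in the table these 3 held TGGGAA on either strand, 2 matches each, and the windows of Notch1, Dll3, Jag1 and Nrarp held none. Over all 33469 rat promoter windows, 25.7% held TGGGAA and 3.85% held 2 or more. The longer form GTGGGAA (or TTCCCAC), each of whose matches contains a TGGGAA, occurred 2 times in Hes5 and 1 time in Hes1 and Dll1, and in 6.29% of all windows, 2 or more times in 0.236%. The N-box CACNAG (or CTNGTG), letters that Hes proteins bind, occurred 4 times in Hes1, 4 times in Notch1 and 2 times in Nrarp. It was found in 43.1% of all windows, 2 or more times in 11.2%. The Notch1 matches at -28 to -23 and at -26 to -21 overlap, 1 on each strand. The E-box CANNTG, bound by proneural factors, was found in Dll1, Dll3, Jag1, Hes5 and Nrarp, and in 72.1% of all windows. No binding was measured in these samples, so the letters describe the windows only.

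Hes1 was highest in Ge2 at all 3 days and rose further there, rose in Ctx8 at day 3, and fell in Ge6 and L2.3 at both days. In Ge2 Hes1 read 219, 218 and 234 at day 0, 315, 367 and 340.2 at day 3 and 281, 327 and 303 at day 7. Ge6 had Hes1 at 53.6, 49.97 and 55.3 at day 0, 19.5, 21.2 and 20.1 at day 3 and 21.9, 19.4 and 32.6 at day 7. For L2.3 the Hes1 intensities were 89.0, 95.8 and 92.3 at day 0, 55.1, 57.7 and 51.7 at day 3 and 33.9, 39.3 and 42.5 at day 7. The arrays of days 3 and 7 were all above day 0 in Ge2 and all below it in Ge6 and L2.3. In Ctx8 Hes1 read 97.96, 93.1 and 93.9 at day 0, 116, 150.4 and 139.9 at day 3 and 76.0, 77.9 and 77.0 at day 7. L2.2 had Hes1 at 63.1 and 49.5 at day 0, 45.6, 51.6 and 48.9 at day 3 and 35.0, 42.98 and 37.4 at day 7. Ctx8 peaked at day 3, and L2.2 overlapped between day 0 and day 3. The changes at days 3 and 7 were -1.38 ± 0.12 and -1.14 ± 0.12 in Ge6 (SE; adjusted p = 1.92e-12 and 1.2e-10), and 0.60 ± 0.12 and 0.44 ± 0.12 in Ge2 (adjusted p = 3.31e-05 and 0.00173). In L2.3 they were -0.75 ± 0.12 and -1.27 ± 0.12 (adjusted p = 1.76e-06 and 2.2e-11), and the day 3 change of Ctx8 was 0.50 ± 0.12 (SE; adjusted p = 0.000441). The day 7 fall in L2.2, -0.55 ± 0.13 (SE; adjusted p = 0.000751), did not pass without day 0 replicate 1 (-0.37), while the day 3 change there, -0.20 ± 0.13, passed after the shift to 1 median (-0.33). The day 7 fall in Ctx8, -0.30 ± 0.12 (SE; adjusted p = 0.0317), did not pass when any 1 of its 6 arrays was left out (-0.28 to -0.32).

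Between day 3 and day 7 Hes1 fell in Ctx8 and L2.3, by 0.81 and 0.51 on the log2 scale. The late fall in L2.2, -0.35 ± 0.12 (SE; adjusted p = 0.0428), did not pass when 1 of 5 of its 6 arrays was left out, day 7 replicate 2 being the exception (-0.28 to -0.39), nor after quantile normalization or the shift to 1 median (-0.35 and -0.33). The late change of Ge6, 0.24 ± 0.12, passed without day 7 replicate 2 (0.40). The day 7 change of Hes1 was higher in Ge2 than in Ge6, L2.2, Ctx8 and L2.3, by 1.58, 0.98, 0.74 and 1.70 on the log2 scale, with adjusted p of at most 0.000419. At day 7 Ge2 averaged 304 ± 22.6 units, Ctx8 76.9 ± 0.951, L2.3 38.6 ± 4.34, L2.2 38.4 ± 4.11 and Ge6 24.6 ± 7.00 (SD, n = 3 each). L2.3 and L2.2 overlapped (adjusted p = 0.989), and the other neighbours differed. In Ge6 the 7 measured neural precursor markers were, as a sum, lower at days 3 and 7 than at day 0, as Hes1 was. They summed to 3837 to 4390.4 units at day 3 and 5728 to 6283 at day 7, against 9186 to 9543 at day 0. Pax6 was near background throughout, and the markers were not followed singly. In L2.3, where Hes1 fell as well, the markers summed to 14231 to 16111 at day 7, against 13648 to 14524 at day 0. In L2.2 and Ctx8, where Hes1 was lower at day 7, they summed to 10296 to 11781, against 5306 to 5336 at day 0, and 16960.0 to 17603, against 14708 to 15285, and in Ge2, where it rose, to 12836 to 13391, against 8260.1 to 8415. The part of cell composition in these results was not tested.

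Hes5 was highest in Ge2 and Ctx8, near background in Ge6, and between them in L2.3. It rose in L2.3 at both days, in Ctx8 at day 3 and in L2.2 at day 7. In Ge2 Hes5 read 122, 116 and 127 at day 0, 105, 136 and 130.1 at day 3 and 118, 149.5 and 125 at day 7. Ctx8 had Hes5 at 71.0, 62.1 and 64.6 at day 0, 126, 96.1 and 93.4 at day 3 and 70.1, 69.8 and 63.5 at day 7. For L2.3 the Hes5 intensities were 20.2, 17.1 and 28.2 at day 0, 50.7, 47.0 and 42.0 at day 3 and 39.0, 49.5 and 29.4 at day 7. The days overlapped in Ge2, day 3 was the high one in Ctx8, and in L2.3 every array of days 3 and 7 was above day 0. L2.2 had Hes5 at 13.9 and 14.4 at day 0, 13.5, 20.3 and 19.6 at day 3 and 21.7, 21.9 and 22.2 at day 7. In Ge6 Hes5 read 12.6, 12.3 and 13.9 at day 0, 16.3, 15.4 and 14.01 at day 3 and 15.9, 12.4 and 17.0 at day 7, and its mean was near background at all 3 days, as was that of L2.2 at day 0. The changes were 1.12 ± 0.16 (SE; adjusted p = 3.28e-07) at day 3 and 0.85 ± 0.16 (SE; adjusted p = 3.25e-05) at day 7 in L2.3, and 0.66 ± 0.16 (SE; adjusted p = 0.000612) at day 3 in Ctx8. In L2.2 the day 7 change was 0.63 ± 0.18 (SE; adjusted p = 0.00349), and the day 3 change, 0.31 ± 0.18, passed without day 3 replicate 1 (0.50). Ge2 changed by 0.013 ± 0.16 and 0.097 ± 0.16 at days 3 and 7, which did not pass (adjusted p = 0.957 and 0.655). The later fall in Ctx8 between day 3 and day 7, -0.62 ± 0.16 (SE; adjusted p = 0.00443), did not pass without day 3 replicate 1 (-0.48).

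At day 0 Hes5 averaged 122 ± 5.47 units in Ge2, 65.9 ± 4.59 in Ctx8, 21.8 ± 5.75 in L2.3, 12.9 ± 0.82 in Ge6 (SD, n = 3 each) and 14.1 ± 0.326 in L2.2 (SD, n = 2). L2.2 minus L2.3 at that day, -0.60 (adjusted p = 0.00753), did not pass without L2.2 replicate 1 or L2.3 replicate 3 (-0.57 and -0.39). At day 3 Ge2 and Ctx8 overlapped, with a difference of 0.24 (Ge2 minus Ctx8; adjusted p = 0.24) that did not pass. At day 7 the order was Ge2, Ctx8, L2.3, L2.2 and Ge6, with means of 131 ± 16.6, 67.8 ± 3.73, 39.3 ± 10.05, 21.9 ± 0.252 and 15.1 ± 2.42 units (SD, n = 3 each). Each neighbour differed from the next, but Ge6 minus L2.2 (-0.55) did not pass without Ge6 replicate 2 (-0.41). The other Hes5 probe set, 1375713_at, lay between 9.72 and 16.1 units in all 44 arrays, near background, and limma called it in 0 of 15 comparisons of days, 0 also at an unadjusted p under 0.05. The brightest, 1368942_at, passed in 5, so the Hes5 values rest on 1 probe set. With the mean of both probe sets the day 7 change of L2.2 was 0.19 and did not pass.

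Hey1, a repressor of the Hey family, was the member that rose in every clone at both days. The estimated rise at day 3 was largest in L2.2 and Ge6, the clones that began lowest, and smallest in Ctx8 and Ge2. In L2.2 Hey1 read 57.9 and 84.3 at day 0, 356, 381 and 385 at day 3 and 585, 557 and 584 at day 7. Ge6 had Hey1 at 90.7, 93.1 and 69.4 at day 0, 428, 452 and 438 at day 3 and 405, 392.3 and 324 at day 7. For L2.3 the Hey1 intensities were 182, 197 and 203 at day 0, 613, 604 and 670.0 at day 3 and 734, 894 and 838 at day 7. In these 3 clones every array of days 3 and 7 was above all of day 0. In Ge2 Hey1 read 702, 675 and 691 at day 0, 984, 987 and 1011 at day 3 and 1377, 1464 and 1491 at day 7. Ctx8 had Hey1 at 501, 449 and 521 at day 0, 592, 612 and 575 at day 3 and 1231, 1305 and 1319 at day 7. These groups did not overlap either, although the day 3 arrays of Ctx8 lay close to those of day 0. At day 3 the changes were 2.39 ± 0.10 in Ge6, 2.42 ± 0.11 in L2.2, 0.53 ± 0.10 in Ge2, 0.28 ± 0.10 in Ctx8 and 1.70 ± 0.10 in L2.3 (SE; adjusted p between 3.48e-21 and 0.0206). At day 7 they were 2.15 ± 0.10, 3.04 ± 0.11, 1.07 ± 0.10, 1.39 ± 0.10 and 2.08 ± 0.10 in the same order of clones (adjusted p between 1.14e-22 and 9.51e-12). The day 3 rise of Ctx8 did not pass without day 0 replicate 2 or day 3 replicate 2 (0.21 and 0.25), nor with all arrays shifted to 1 median (0.14).

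Between day 3 and day 7 Hey1 rose in L2.2, Ge2, Ctx8 and L2.3, by 0.62, 0.54, 1.12 and 0.38 on the log2 scale. The value of L2.3 did not pass without day 7 replicate 2 (0.32). In Ge6 the late change was -0.24 ± 0.10 (SE; adjusted p = 0.0589). It passed under 8 alternatives, among them without day 7 replicate 1 (-0.30) and after the shift to 1 median (-0.35). The day 7 rise was larger in L2.2 than in Ge6, Ge2, Ctx8 and L2.3, by 0.89, 1.97, 1.65 and 0.96 on the log2 scale, with adjusted p of at most 8.37e-06. At day 7 Hey1 averaged 1444 ± 59.5 units in Ge2, 1285 ± 47.2 in Ctx8, 822 ± 81.4 in L2.3, 575 ± 16.1 in L2.2 and 374 ± 43.7 in Ge6 (SD, n = 3 each). At day 0 the ends of the order were Ge2 with 689 ± 13.7 units (SD, n = 3) and L2.2 with 71.1 ± 18.7 (SD, n = 2). Ge2 minus Ctx8 at day 7 was 0.17 (adjusted p = 0.18) and passed after the shift (0.23) and after quantile normalization (0.22). Ge6 minus L2.2 at day 0 was 0.26 (adjusted p = 0.0748), and passed without Ge6 replicate 3 or L2.2 replicate 3 (0.40 and 0.53). The sum of the astrocyte markers, like Hey1, was higher at days 3 and 7 than at day 0 in all 5 clones. In Ge6 these markers summed to 1432 to 1457.5 units at day 3, when Hey1 averaged 439, against 84.4 at day 0. In Ctx8 they summed to 8145 to 8411 at day 3, when Hey1 averaged 593, against 490 at day 0. The day 3 sums were 2197 to 2395.5 in L2.2, 9947 to 10260 in Ge2 and 8053 to 8602 in L2.3. Hey1 averaged 374, 994 and 629 in these 3 groups, against 71.1, 689 and 194 at day 0. The 10 markers summed to 3058 to 3290.4 units at day 7 in Ge6, against 1016 to 1113 at day 0, and to 6227 to 9124, against 847 to 898, in L2.2. In Ge2 they summed to 15100.0 to 16291 at day 7, against 2109 to 2138 at day 0, in Ctx8 to 23366 to 24402, against 902 to 1008, and in L2.3 to 17664 to 25267, against 886 to 905. At day 7, 9 of 10 were above background in Ge6, L2.2, Ctx8 and L2.3 and 7 in Ge2, with Slc1a2 near background in all 15 groups and 2 more in Ge2, Gja1 among them, and their part in the Hey1 result was not tested.

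Nrarp, a small ankyrin repeat protein that Notch induces and that feeds back to limit it, went the other way from Hey1 in most clones. It fell in Ge6, Ge2, Ctx8 and L2.3 at both days and rose in L2.2 at day 3. In L2.2 Nrarp read 29.6 and 28.3 at day 0, 84.9, 82.6 and 81.0 at day 3 and 44.1, 37.2 and 39.0 at day 7. Ge2 had Nrarp at 441, 487 and 460.2 at day 0, 197, 180.4 and 203 at day 3 and 205, 258 and 266 at day 7. For Ctx8 the Nrarp intensities were 284, 265 and 314 at day 0, 111, 129 and 119.6 at day 3 and 76.5, 82.6 and 77.3 at day 7. In L2.2 the day 3 arrays were the highest, and in Ge2 and Ctx8 day 0 stood above all later arrays. L2.3 had Nrarp at 218, 229.6 and 231 at day 0, 93.8, 80.3 and 77.0 at day 3 and 58.5, 53.9 and 49.2 at day 7. In Ge6 Nrarp read 60.7, 56.1 and 49.9 at day 0, 26.6, 15.1 and 20.1 at day 3 and 13.6, 17.1 and 20.9 at day 7, with 1 array under the background level at day 3 and 1 at day 7. At day 3 the change was 1.52 ± 0.15 (SE; adjusted p = 1.09e-10) in L2.2, and -1.47 ± 0.13, -1.26 ± 0.13, -1.26 ± 0.13 and -1.44 ± 0.13 in Ge6, Ge2, Ctx8 and L2.3 (adjusted p of at most 2.8e-10). The day 3 change was higher in L2.2 than in Ge6, Ge2, Ctx8 and L2.3, by 2.98, 2.78, 2.78 and 2.96 on the log2 scale, with adjusted p of at most 7.88e-14. At day 7 the changes were -1.71 ± 0.13 in Ge6, -0.94 ± 0.13 in Ge2, -1.87 ± 0.13 in Ctx8 and -2.07 ± 0.13 in L2.3 (adjusted p of at most 1.3e-07).

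Nrarp in L2.2 at day 7 was a weaker case. The brightest probe set gave 0.47 ± 0.15 (SE; adjusted p = 0.01), which did not pass without day 0 replicate 3 or day 7 replicate 1 (0.43 and 0.40), nor after quantile normalization (0.33). The second probe set, 1375277_at, gave -0.24 there (adjusted p = 0.136). Between day 3 and day 7 Nrarp fell in L2.2, Ctx8 and L2.3, by 1.05, 0.60 and 0.63 on the log2 scale. Ge6 and Ge2 gave -0.24 ± 0.13 and 0.32 ± 0.13, which did not pass. The Ge6 value passed under 3 alternatives, among them without day 3 replicate 2 or day 7 replicate 3 (-0.45 and -0.39). The Ge2 value passed under 4 alternatives, among them without day 7 replicate 1 (0.44). The second probe set made the same call as the brightest in 13 of 15 comparisons of days. It differed in L2.2 at day 7 and in Ge2 between day 3 and day 7, where the second passed as a rise. In Ge2 the second read 482, 479 and 517 at day 0, 76.7, 78.9 and 64.6 at day 3 and 86.9, 112 and 86.6 at day 7, and in L2.3 223, 273 and 260.4 at day 0, 29.4, 35.8 and 32.9 at day 3 and 29.3, 21.5 and 23.7 at day 7. Its day 3 changes, -2.75 in Ge2, -2.57 in Ctx8 and -2.95 in L2.3, exceeded those of the brightest probe set, while L2.2 gave 1.11 and Ge6 -1.19. The third, 1376246_at, had means near background in all 15 groups, between 8.41 and 17.7 units over single arrays, and passed in 3 comparisons. At day 7 Nrarp averaged 243 ± 33.1 units in Ge2, 78.8 ± 3.34 in Ctx8, 53.8 ± 4.63 in L2.3, 40.1 ± 3.56 in L2.2 and 17.2 ± 3.66 in Ge6 (SD, n = 3 each). L2.2 minus L2.3 was -0.43 (adjusted p = 0.0124) and did not pass without L2.2 replicate 2 or L2.3 replicate 1 (-0.37 and -0.36), and the other neighbours differed.

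**Figure D3:**
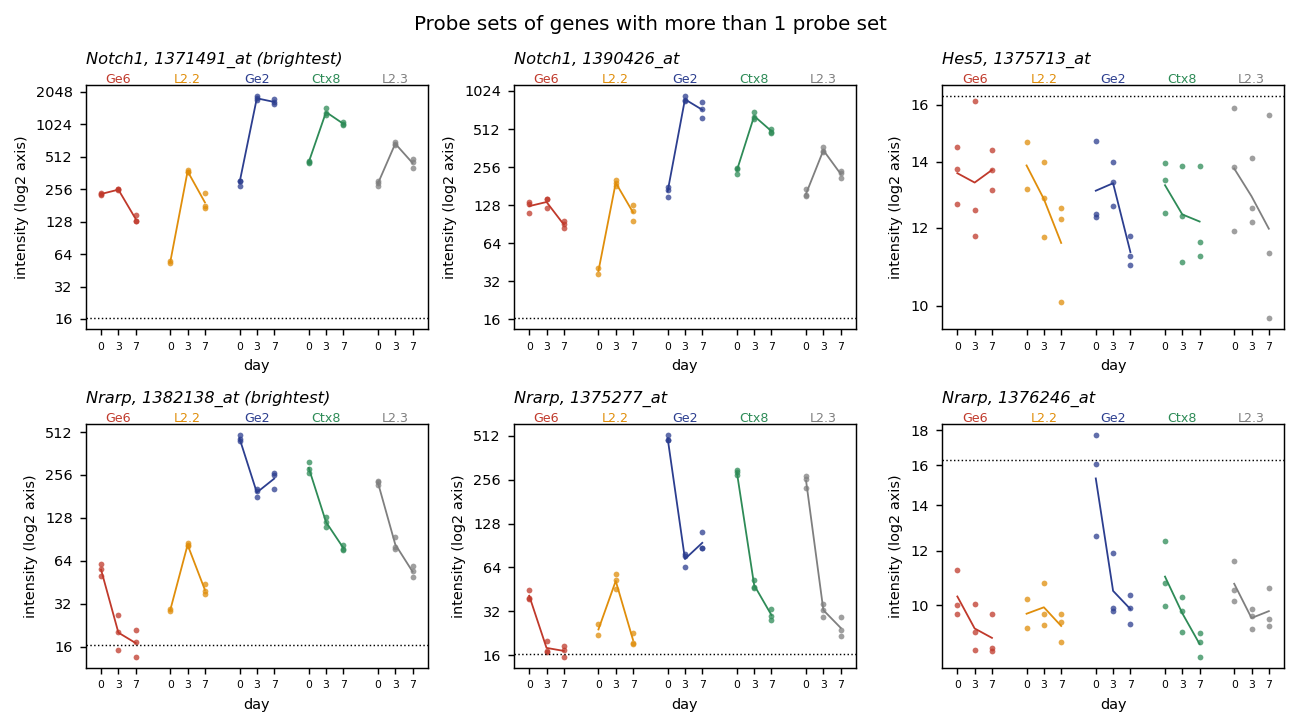
Intensity in every array, on a log2 axis, for the probe sets of genes with more than 1, apart from the brightest of Hes5, by clone and day. Lines join geometric means and the dotted line marks 16.3 units. Both Notch1 probe sets follow the same course, the second Nrarp probe set drops further than the brightest in Ge2, Ctx8 and L2.3, and the third and the second of Hes5 stay near background.

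Whether the 5 clones differed was tested over all of them at once with moderated F tests. All 8 genes differed between clones at day 0, day 3 and day 7, where 58.0%, 67.4% and 69.2% of all probe sets did. The change since day 0 also differed between clones for all 8 genes at day 3 (60.7% of all probe sets) and at day 7 (65.0%), so the counts are read against a background in which most probe sets differed. The adjusted p of that day 7 test was smallest for Notch1 (2.15e-22) and largest for Hes5 (0.00624). For Hey1, which rose in every clone, the change to day 7 also differed in size (adjusted p = 2.48e-13).

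How the members went together was described by Pearson's r between their 15 group means of log2 intensity, which share arrays and clones and get no test. The targets Hes1, Hes5 and Nrarp had r of 0.856 for Hes1 and Nrarp, 0.84 for Hes1 and Hes5 and 0.756 for Hes5 and Nrarp. These values take in level differences between clones as well as changes with time. At day 3 Hes1 rose and Nrarp fell in Ge2 and Ctx8, while both fell in Ge6. In L2.3 Hes5 rose as Hes1 and Nrarp fell, and in L2.2 Nrarp alone of these targets passed, as a rise. Notch1 ran with Hes5 (r = 0.802) and Hey1 (r = 0.766), less with Hes1 (0.64) and Nrarp (0.56). Hey1 and Nrarp had r = 0.362, both being high in Ge2 while their changes with time pointed opposite ways in 4 clones. The ligands Dll1 and Dll3 had r = 0.66, Dll3 and Jag1 -0.529, and neither Delta ligand exceeded 0.145 with any target. Among 3804 genes with enough spread, the 3 with the course most like Notch1 were Jam2 (r = 0.926), Col16a1 (r = 0.901) and Nedd9 (r = 0.901). For the ligands they were Kcnk10 (r = 0.928), Cdh10 (r = 0.916) and Gatm (r = 0.903) for Dll1, Tmem98 (r = 0.819), Tafa5 (r = 0.81) and Sfrp2 (r = 0.805) for Dll3 and Hyou1 (r = 0.827), Slx4ip (r = 0.823) and Cul5 (r = 0.82) for Jag1. For Hes1 they were Lamc1 (r = 0.951), Sapcd1 (r = 0.934) and Atl3 (r = 0.93), and for Hes5 Inhbb (r = 0.94), Fgfbp3 (r = 0.915) and Sapcd1 (r = 0.9). For Hey1 they were Aldoc (r = 0.907), Cdc37l1 (r = 0.894) and Snn (r = 0.871), Aldoc being 1 of the 10 astrocyte markers, and for Nrarp Vegfb (r = 0.884), Nid1 (r = 0.882) and Ltbr (r = 0.879).

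The rest of the pathway was taken from a list of 56 further genes, receptors, ligands, modifying enzymes, proteases, nuclear partners and turnover factors, of which 43 had a probe set. At day 7, 15 rose and 10 fell in Ge6 (median -0.0537), 10 rose and 13 fell in L2.2 (median 0.0178), 18 rose and 10 fell in Ge2 (median 0.0011), 14 rose and 9 fell in Ctx8 (median 0.0266) and 11 rose and 11 fell in L2.3 (median 0.0369) on the log2 scale, as are the changes named from here on. These counts stand against the shares of all probe sets already given for these comparisons, 25.7% higher and 28.0% lower in Ge6, for instance. At day 3, 12 rose and 11 fell in Ge6 (median -0.0293), 13 rose and 7 fell in L2.2 (median -0.00738), 17 rose and 9 fell in Ge2 (median 0.125), 18 rose and 6 fell in Ctx8 (median 0.107) and 11 rose and 12 fell in L2.3 (median 0.0323). Of all probe sets, 21.6% rose and 21.9% fell at day 3 in Ge6, 19.3% and 21.5% in L2.2, and 28.2% and 26.2% in Ge2. The day 3 shares were 24.0% and 23.5% in Ctx8, and 18.7% and 21.1% in L2.3. Values of single genes at day 7 are given in the order Ge6, L2.2, Ge2, Ctx8 and L2.3, and SEs of these changes were 0.061 to 0.22. Notch2, the second receptor, changed by -1.04, 0.53, 2.04, 0.80 and -0.63. It rose with Notch1 in Ge2, fell with it in Ge6, and fell in L2.3, where Notch1 rose. Notch4 gave 0.062, -0.067, -1.10, -0.26 and 0.21 (not passing in Ge6, L2.2, Ctx8 and L2.3). Of the other ligands Jag2, with a mean intensity of 12.4 over all arrays, gave 0.52, -1.17, -0.16, 0.73 and 0.31 (not passing in Ge2). The noncanonical ligand Dlk1 gave 0.83, -0.67, -0.0053, -0.00039 and 3.09 (not passing in Ge2 and Ctx8), and Cntn1, another, 0.20, 2.12, 2.26, 0.057 and -0.79 (not passing in Ge6 and Ctx8).

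Mfng, a Fringe enzyme that adds a sugar to Notch and alters which ligands it answers, gave 0.38, 2.95, -2.05, 0.77 and 4.496 (not passing in Ge6), its widest steps being the rise in L2.3 and the fall in Ge2. Its relative Lfng gave -0.29, -0.087, -0.11, -0.59 and -0.68 (not passing in Ge6, L2.2 and Ge2). Among the proteases that cut Notch, Adam10 changed by -0.57, -0.27, -0.13, -0.81 and -1.24 (not passing in Ge2), and Adam17 by -1.96, -0.67, -0.40, 0.085 and -0.28 (not passing in Ctx8). Psenen, a subunit of gamma-secretase, rose in all 5 clones, by 1.22, 1.32, 1.60, 1.02 and 0.79. The nuclear coactivator Maml3 gave 2.08, 0.26, -0.39, 0.18 and 0.13 (not passing in L2.2, Ctx8 and L2.3), and Kat2b gave 1.26, 0.027, 0.94, 0.55 and 0.22 (not passing in L2.2 and L2.3). Hes6, which in mouse opposes Hes1, gave -0.088, 0.46, -0.50, 0.19 and 1.70 (not passing in Ge6), rising most in L2.3. Of the regulators of the receptor, Dtx3 rose in all 5 clones, by 2.10, 0.69, 1.49, 1.72 and 1.52, and Numbl by 1.15, 0.77, 1.19, 1.19 and 1.02. Numb, which counters Notch, rose in 4 and gave 0.59, 0.018, 1.55, 1.20 and 0.60 (not passing in L2.2). Nle1 fell in all 5, with changes of -1.72, -1.495, -1.39, -1.81 and -0.46. Mib2, a ligase for the ligands, gave 0.28, -1.24, -0.39, 0.68 and 0.25. Among genes of the list that did not pass at day 7 were Ctbp1 in Ge6 (0.051), Ctbp2 in L2.2 (0.11), Hdac2 in Ge2 and L2.3 (-0.074 and 0.086) and Poglut1 in Ctx8 (-0.014).

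**Figure D4:**
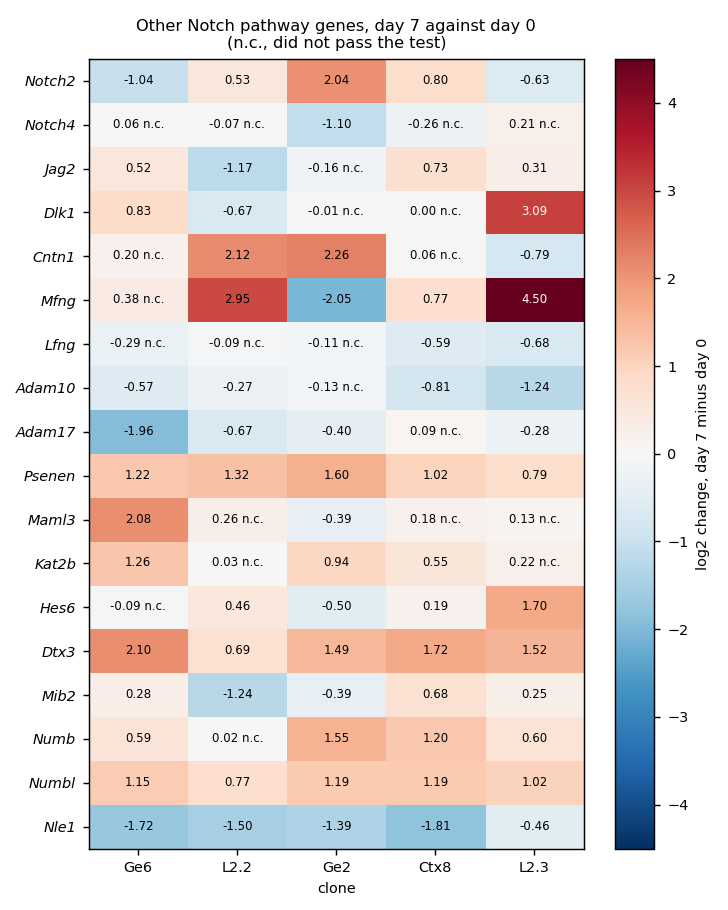
Log2 change between day 0 and day 7 of the 18 other Notch pathway genes that the naming rule picked in at least 1 clone, by clone. Red is higher at day 7, blue lower, and n.c. marks values that did not pass the test. Psenen, Dtx3 and Numbl are red and Nle1 blue in all 5 clones, while Mfng ranges between -2.05 in Ge2 and 4.496 in L2.3.

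Hes and Hey repressors act on proneural and related helix-loop-helix factors, and Id proteins bind the partners of these factors, so a list of 15 such genes was set beside the members, 11 of which were measured. At day 7, 2 rose and 4 fell in Ge6, 6 rose and 2 fell in L2.2, 3 rose and 3 fell in Ge2, 4 rose and 2 fell in Ctx8 and 6 rose and 2 fell in L2.3, with medians of -0.0925, 0.703, -0.0194, 0.063 and 1.38 on the log2 scale. Over all probe sets the shares that rose and fell were 25.7% and 28.0% in Ge6, 20.0% and 24.1% in L2.2, 26.9% and 27.5% in Ge2, 23.5% and 25.3% in Ctx8, and 19.2% and 22.7% in L2.3. Neurod1, a neuronal differentiation factor, gave -0.069, 1.97, 0.11, 0.063 and 4.69 (not passing in Ge6, Ge2 and Ctx8) in Ge6, L2.2, Ge2, Ctx8 and L2.3, and the other genes are given in that order too. Id4 rose in all 5 clones, by 3.15, 4.43, 4.36, 4.59 and 4.15, and Id2 as well, by 1.46, 1.94, 4.35, 2.66 and 1.38. Id3 rose in Ge2, Ctx8 and L2.3 and fell in Ge6 and L2.2, with -0.90, -0.54, 1.54, 4.24 and 2.02. Id1 rose in Ctx8 and L2.3 and fell in Ge6, L2.2 and Ge2, with -2.27, -0.90, -0.78, 1.17 and 1.52. Olig1 and Olig2, which specify oligodendrocytes, fell in every clone but L2.2, where both rose, with -2.98, 1.83, -0.50, -0.58 and -2.03 for Olig1 and -3.19, 0.70, -0.54, -0.70 and -2.42 for Olig2. Both were near background in Ge2 at days 3 and 7, and Olig2 also in L2.2 at days 0 and 3.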

How the data were processed

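RNA of 44 cultures was hybridised to Affymetrix rat expression arrays, 1 array a culture. The authors deposited linear intensity values, which were made with GCOS and RMA, per the submitters' processing notes. No software version is stated there. The deposited table holds 24183 probe sets with intensities between 6.39 and 12734.5, with no detection calls. Array medians nevertheless differed by day, at 24.2 to 26.2 at day 0, 25.2 to 28.6 at day 3 and 26.8 to 28.9 at day 7, and whether all arrays were normalized in 1 run is not given in the labels. This bears on every change against day 0, for which the shift to 1 median is an alternative. The log2 of the deposited intensities was taken with no pseudocount and no filter, and limma 3.58.1 in R 4.3.3 fitted 15 group means to all probe sets, with eBayes (residual df 29) and Benjamini-Hochberg adjustment over all probe sets in each comparison, called at 0.05. Comparisons were 15 of days within a clone, neighbouring clones at a day (from 30 pairs), 5 F tests over clones and 20 pairs of changes. Design and fits were tested on simulated data. The platform annotation gave 17547 probe sets 1 gene, 213 several and 6423 none, and 17450 symbols were updated through the RefSeq gene table. Same-group arrays were not identical in any pair, and their log2 values had r of 0.992 to 0.998 over all probe sets. The 8 genes, the pathway, proneural and marker lists and the tests were chosen with earlier results of these data known. Of the lists, text names per comparison up to 3 of the largest rises, up to 3 of the largest falls and the brightest gene that did not pass, and for each member the 3 genes with the highest r over 15 group means among genes with an SD of at least 0.5 and a mean above background. Motifs were searched on both strands of RefSeq promoter windows (GRCr8), which matched 7 of the 8 genes, Hey1 being the exception. Alternatives were a shift to 1 median, quantile normalization, other and averaged probe sets, a filter on dim probe sets, a pseudocount of 16, array weights, trended and robust estimation, a minimum fold of 1.2, fits to only the groups compared, replicate blocks and leaving out each array.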

Additional observations from a re-analysis of the deposited data

Results flagged for a closer look

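For all 8 genes the change since day 0 differed between the 5 clones, by a moderated F test of the changes themselves in limma, adjusted over all probe sets. For the change to day 3 the adjusted p was 2.57e-20 for Notch1, 1.34e-09 for Dll1, 2.68e-11 for Dll3 and 0.00544 for Jag1. It was 4.61e-13 for Hes1, 0.000527 for Hes5, 4.24e-17 for Hey1 and 1.22e-15 for Nrarp. For the change to day 7 the adjusted p was 2.15e-22 for Notch1, 2.99e-14 for Dll1, 3.36e-13 for Dll3 and 0.00012 for Jag1. It was 7.6e-11 for Hes1, 0.00624 for Hes5, 2.48e-13 for Hey1 and 2.69e-13 for Nrarp. Notch1, Nrarp and Hey1 show 3 forms of this difference, Notch1 having moved in opposite directions at day 7 in Ge6 (-0.77 on the log2 scale) and Ge2 (2.49), Nrarp at day 3 in L2.2 (1.52) and Ge6 (-1.47), and Hey1 upwards in each clone by unlike amounts. Since 60.7% and 65.0% of all probe sets passed these tests at days 3 and 7, passing does not set the genes apart.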

How the results depend on the processing

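Of the 120 day changes of single genes 80 passed, and 48 of the 120 changed call under at least 1 alternative, as did 36 of 96 differences between neighbouring clones, 7 of 40 F tests and 3 of 20 pairs of changes, while no scaling of the arrays reversed a change that had passed. Directions reversed with other probe sets. With 1375713_at, near background in all arrays, Hes5 gave -0.0984 at day 3 in Ctx8, -0.0933 and -0.20 at days 3 and 7 in L2.3, and -0.26 at day 7 in L2.2. Between clones it gave 0.0105 (L2.2 minus L2.3), -0.0185 (Ge2 minus Ctx8) and -0.0561 (Ctx8 minus L2.3) at day 0, -0.0612 (Ctx8 minus L2.3) at day 3, and 0.25 (Ge6 minus L2.2) and -0.10 (Ge2 minus Ctx8) at day 7. Nrarp at day 7 in L2.2 gave -0.24 with 1375277_at and -0.0593 with 1376246_at, which also gave 0.0334 between days 3 and 7 in L2.3 and -0.16 (Ctx8 minus L2.3) at day 7. Nrarp in L2.2 minus L2.3 at day 3, -0.0095 with the brightest, was 0.67 with 1375277_at and 0.24 with the mean of its probe sets. The cause was not tested. A required minimum change of 1.2-fold, by its construction, lowered the share of all probe sets called against day 0 to 24.7%, 21.5%, 29.9% and 19.9% at day 3 in Ge6, L2.2, Ctx8 and L2.3, and to 25.5%, 30.9% and 22% at day 7 in L2.2, Ctx8 and L2.3. Between days 3 and 7 it lowered the share to 18.5%, 4.2%, 2.29%, 4.49% and 3.18% in Ge6, L2.2, Ge2, Ctx8 and L2.3. It left 3 of the 8 genes at day 3 in Ctx8, 3 and 3 at day 7 in L2.2 and Ge2, and 0, 4 and 2 between days 3 and 7 in Ge2, Ctx8 and L2.3. Between days 3 and 7, leaving out dim probe sets raised the share called in Ctx8 to 27.5%, and fitting only the groups compared lowered that in Ge2 to 5.33%, where this fit called 1 of the 8 genes and array weights 1. In Ge6 over that time, the shift to 1 median called 5 of the 8 genes, leaving out dim probe sets 3, and quantile normalization, 1 probe set a gene, averaged probe sets, array weights, trended and robust estimation, log2(value + 16) and the replicate block within clones 2 each, against 1 in the report. Leaving out 1 array gave 1 to 3 genes there and 1 to 2 in Ge2. The labels do not say whether equal replicate numbers pair the samples. Deviations of same-numbered arrays of a clone had r between -0.0727 and 0.151 (median 0.0175). Those of other-numbered arrays of a clone had r between -0.135 and 0.115 (median -0.0108), and 23 of 44 arrays were closest to their own number of 3. An additive replicate block changed no call among the members, and a replicate block within clones changed 1, Hey1 between days 3 and 7 in Ge6 (-0.24, adjusted p = 0.0332). Values near background (Hes5 in Ge6, Dll1 in Ge2 at day 0) have folds that understate or cannot show a change, and 2 or 3 arrays a group limit the precision.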
